A study of Mus musculus with 6 samples.

Results

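The genes described here are 45 genes of the endoplasmic reticulum (ER) that act in protein translocation, in folding and in the unfolded protein response. They were taken by symbol from the 24354 genes of the table, and all 45 were found. The study purified the messenger RNA bound to tagged ribosomes (translating ribosome affinity purification, TRAP) from choroid plexus (ChP), the epithelial tissue of the brain ventricles that secretes cerebrospinal fluid, and sequenced it in 3 samples at 60 days of age (adult) and 3 at embryonic day 16.5 (E16.5). Mice of both ages carried FoxJ1:cre together with the bacTRAP allele EGFP:L10a, a ribosomal protein fused to green fluorescent protein, so that ribosomes were tagged in cells in which Cre driven by Foxj1, a gene of ciliated cells, had acted. By the study's methods a sample was ChP of the lateral ventricles, pooled from 3 mice of 8 weeks or from 3 litters of embryos. The study's description instead gives 3 mice for each age, and the sex of the animals in a pool is not given. How many animals a replicate stands for is therefore not settled, and the spread between samples may be partly technical.

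Proteins bound for secretion or for membranes enter the ER while they are made. The signal recognition particle brings the ribosome to its receptor, the Sec61 channel passes the chain through, signal peptidase cuts off the leader and the oligosaccharyltransferase adds glycans. Chaperones and disulfide isomerases then fold the chain, and sensors in the ER membrane raise the genes of these steps when unfolded protein builds up. The ChP epithelium is a secretory tissue and makes large amounts of transthyretin.

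Levels are given in FPKM, the sequenced fragments of a gene scaled to the length of its transcript and to the size of the library. A change is the difference of log2(FPKM + 1), adult minus E16.5, and understates the change of genes with low values. It was tested with limma across the 11601 genes whose mean exceeded 1 FPKM, and a gene was called at a Benjamini-Hochberg adjusted p below 0.05. Of the 45 ER genes, 44 were tested. Srp54a, the subunit that binds the signal sequence, reached at most 0.184 FPKM in any sample and was not. In that gene 75.2% of the 50-base stretches are shared with other genes, so its level is uncertain.

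The libraries differed in depth. Judged from the value of a single read, adult replicate 3 was the shallowest, with replicate 1 at 1.26 and replicate 2 at 2.86 times its depth, and embryonic samples at 4.02 to 5.09 times. In the adult libraries 10.3% to 36.4% of the genes tested were listed at 0, against 3.68% to 4.02% in the E16.5 libraries. A listed 0 may come from a failed estimate. Mir6236 took 32.7% to 51.7% of the summed FPKM in adults and 13.3% to 15% at E16.5. The median change of all genes tested was -0.86, so a gene with a change near 0 lay above most others, and changes are also given relative to this median. All 11 markers of ChP epithelium were tested, of which 5 rose and 1, Otx2, fell. Folr1 and Aqp1 were not called but were also lower in every adult sample. Folr1 read 465 to 707 FPKM in adults and 827 to 1048 FPKM at E16.5. Aqp1 read 68.55 to 168 FPKM in adults and 226 to 262 FPKM at E16.5. Ttr, the gene of transthyretin, was listed at 0 in all 3 E16.5 samples, the deeper libraries, and at 20920 to 31300 FPKM in adults. This 0 may also come from a failed estimate, so it is not read as absence of Ttr at E16.5. Ttr and Enpp2 make up most of the adult sum. The other 9 markers summed to 3314 to 4153 FPKM in adults and 2388 to 2691 FPKM at E16.5. The markers of red blood cells summed to 0 to 6.49 FPKM in adults and to 54.1 to 324 FPKM at E16.5, and those of motile cilia to 233 to 375 FPKM in adults and 1078 to 1339 FPKM at E16.5, with Foxj1 itself at 37.9 to 62.4 and 154.5 to 208 FPKM. Mesenchymal markers summed to 13.3 to 21.9 FPKM in adults and 57.7 to 69.3 FPKM at E16.5. Single libraries stood apart in other lists: markers of neurons and their progenitors summed to 95.3 FPKM in E16.5 replicate 1, against 4.52 and 4.73 FPKM in the other E16.5 samples and 0 to 3.24 FPKM in adults, and those of astrocytes and oligodendrocytes to 73.0 FPKM in adult replicate 3, of which Mbp 58.7, against 4.59 and 11.8 FPKM in the other adults. The part of these differences in the results was not tested, and in such bulk samples fewer cells of a type and less RNA per cell cannot be told apart.

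Of the 44 ER genes tested, 6 rose in adults and 5 fell. Those that rose were chaperones and their partners: Hspa5, Hsp90b1, Hyou1, Dnajc3, Canx and Pdia3. Those that fell were Srp14 of the signal recognition particle, Sec61b and Sec61g of the translocation channel, Ssr2 of the complex beside it, and the isomerase Pdia4. The 6 genes that rose were 13.6% of the ER genes tested, where 2.12% of all genes tested rose, and the 5 that fell were 11.4%, where 8.83% of all genes fell. Without adjustment, 12 ER genes (27.3%) were higher and 10 (22.7%) lower at p below 0.05, where 5.34% of all genes tested were higher and 25.9% lower. Without adult replicate 3 limma called 6 ER genes as higher and 6 as lower, and without E16.5 replicate 1 it called 0 and 1. In 14 ER genes (31.8%) all 3 adult samples lay above all 3 E16.5 samples, which held for 7.39% of all genes tested, and in 11 (25%) they lay below, which held for 31.0% of all genes. The median change of the 44 genes was 0.16, or 1.02 above that of all genes, and 24 of the 44 changes were positive, a number that ran from 12 when libraries were rescaled to the same sum of FPKM to 30 after quantile normalization.

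**Figure D1:**
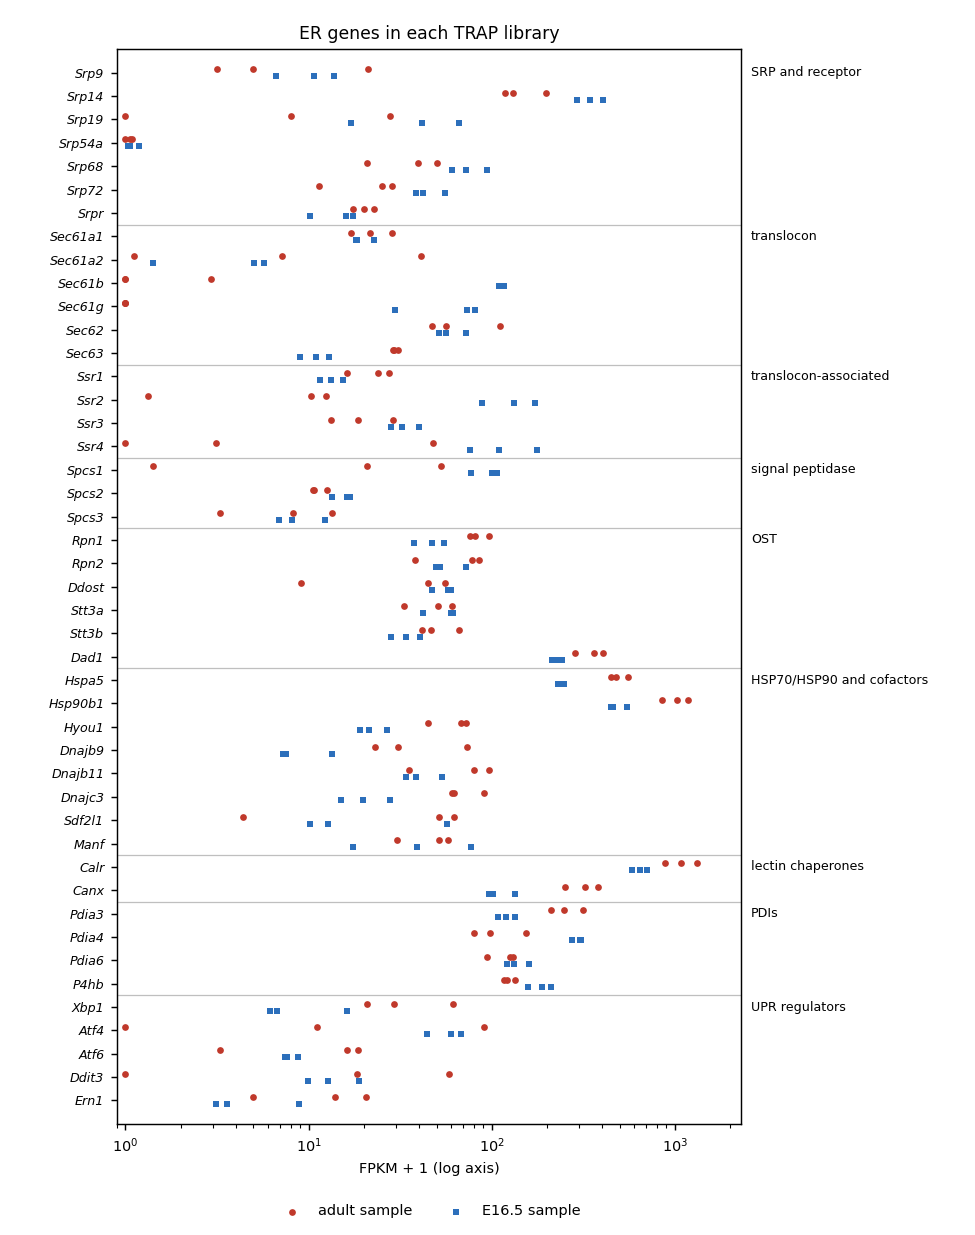
Level of each of the 45 ER genes in each TRAP library, as FPKM + 1 on a log axis, grouped by role (SRP, signal recognition particle; OST, oligosaccharyltransferase; PDIs, protein disulfide isomerases; UPR, unfolded protein response). Circles are the 3 adult and squares the 3 E16.5 samples. Calr and Hsp90b1 lie farthest to the right at both ages, and Sec61b and Sec61g lie at or near 0 FPKM in adults and between 28.8 and 117 FPKM at E16.5.

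The levels of the genes spanned a wide range. Calr and Hsp90b1 were the highest, with median percentiles among all genes tested of 99.9 for both in adults, and of 99.5 and 99.1 at E16.5. The median ER gene lay at percentile 83.8 to 87.8 of the adult libraries and 81.0 to 87.3 of the E16.5 libraries, and these ranges overlapped.

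**Figure D2:**
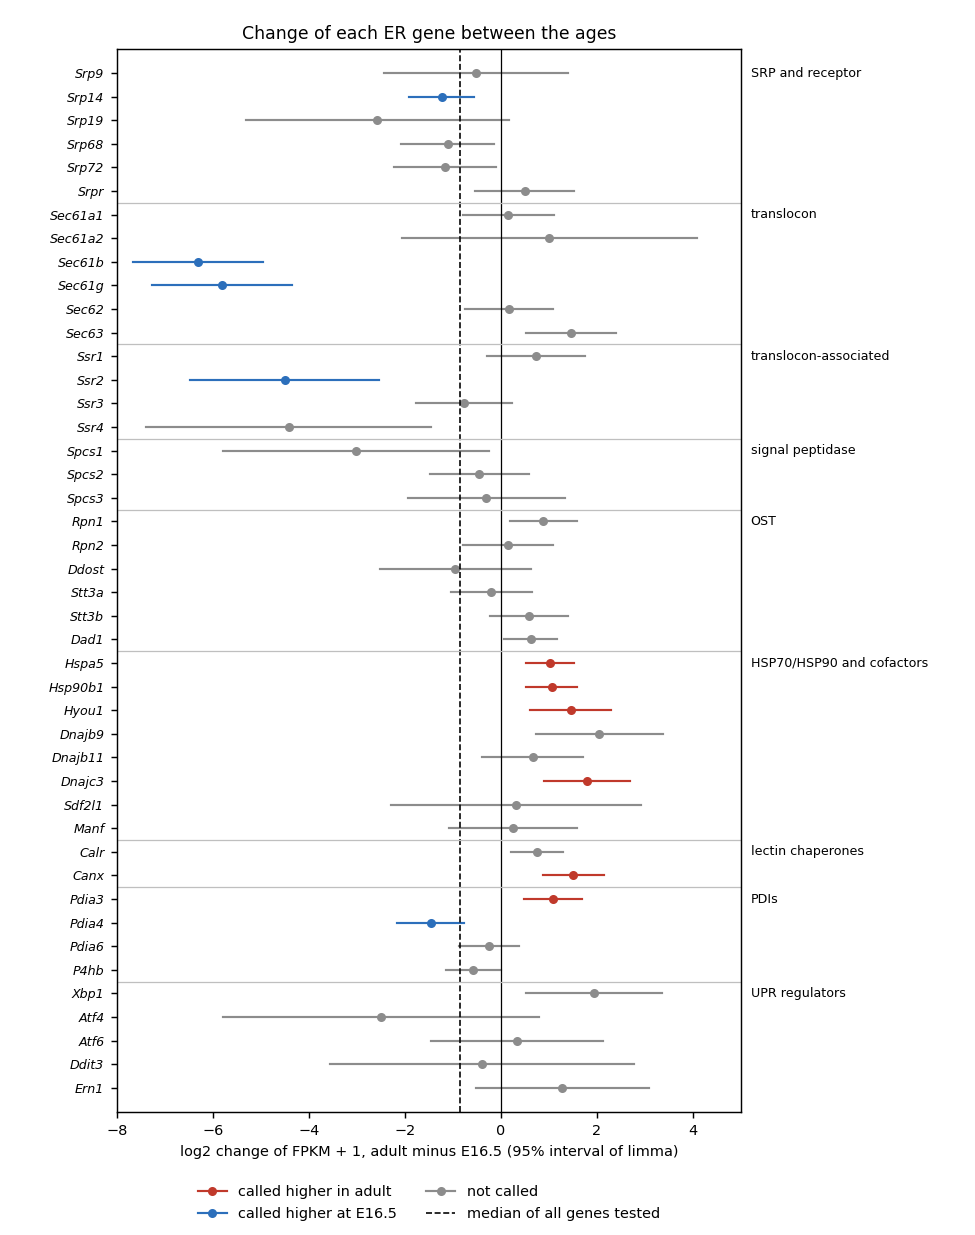
Change of the 44 ER genes tested, as log2(FPKM + 1) in adult minus E16.5, with the 95% interval of limma. Red points rose in adults, blue points fell and grey points were not called. The dashed line is the median of all genes tested, -0.86. All 8 chaperones and cofactors of the HSP70 and HSP90 families lie to the right of 0, though the signs of Dnajb11, Sdf2l1 and Manf turned when libraries were rescaled to the same sum of FPKM. Sec61b, Sec61g and Ssr2 lie farther left than the other called genes.

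The chaperones of the HSP70 and HSP90 families and their cofactors held most of the genes that rose. Of 8 genes, 4 rose and none fell, with a median change of 1.04. Among all genes tested, 2.12% rose, 8.83% fell and 72.8% had negative changes. All 8 changes were positive, from 0.25 to 2.05, except that those of Dnajb11, Sdf2l1 and Manf turned when libraries were rescaled to the same sum of FPKM, where none of the 8 was called. Hspa5 (chr2:34771970-34777547 of mm10, plus strand) encodes BiP, the HSP70 of the ER, which binds unfolded chains and holds the stress sensors inactive. In replicates 1, 2 and 3 of the adult, in that order here and throughout, it read 554, 448 and 477 FPKM, and in those of E16.5 249, 231 and 242 FPKM. The ages did not overlap, and the adult mean of 493 ± 54.4 (SD, n = 3) was 2.05 times the E16.5 mean of 241 ± 9.23 (SD, n = 3). The change was 1.03 (SE 0.22, adjusted p = 0.0295), or 1.88 relative to the median of all genes. Hsp90b1 (chr10:86690209-86705509, minus strand), the HSP90 of the ER known as GRP94, read 853, 1174 and 1026 FPKM in adults and 462, 450.2 and 544 FPKM at E16.5. Its lowest adult sample was well above its highest E16.5 sample, with means 2.10 times apart and a change of 1.06 (SE 0.23, adjusted p = 0.0310). In its transcripts 10.02% of the 50-base stretches are shared with other genes, of which 8.82% with 1810014B01Rik.

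The other genes of this group that rose act on BiP. Hyou1 (chr9:44379490-44392369, plus strand), which exchanges its nucleotide, read 67.4, 43.9 and 71.8 FPKM in adults and 17.99, 20.3 and 25.95 FPKM at E16.5. The change of 1.45 (SE 0.36, adjusted p = 0.0448) stood closest to the threshold among the 6. Dnajc3 (chr14:118937976-118981697, plus strand), a J-domain partner also known as an inhibitor of the kinase PERK, read 89.5, 59.9 and 61.6 FPKM in adults and 18.9, 27.0 and 14.01 FPKM at E16.5. All adult samples were above all E16.5 samples, the means were 3.53 times apart and the change was 1.79 (SE 0.38, adjusted p = 0.0308). Dnajb9, a J-domain protein that recruits BiP to the sensor Ern1, had the largest positive change of the 44 genes, 2.05 (SE 0.57), but its adjusted p of 0.0590 missed the threshold. It read 22.0, 29.8 and 72.5 FPKM in adults and 6.52, 12.4 and 6.28 FPKM at E16.5, with adult replicate 3 far above the other adults. Dnajb11, a J-domain partner of nascent chains, Sdf2l1, which works with it, and Manf, a secreted protein that binds BiP, had changes of 0.66, 0.30 and 0.25 with overlapping ages. Sdf2l1 was uneven within both ages, at 3.39, 61.4 and 50.5 FPKM in adults and 56.3, 11.8 and 9.22 FPKM at E16.5.

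Both lectin chaperones, which hold glycoproteins by their trimmed glycans, were higher in every adult sample, which held for 7.39% of all genes tested. Canx (chr11:50293961-50325673, minus strand), the membrane-bound calnexin, read 323, 379 and 250.4 FPKM in adults and 96.3, 100.9 and 134 FPKM at E16.5. The means of 317 ± 64.5 and 110.4 ± 20.5 FPKM (SD, n = 3 each) were 2.88 times apart, and the change of 1.51 (SE 0.27, adjusted p = 0.0201) had the smallest adjusted p of the genes that rose. Calr, its soluble counterpart calreticulin, read 888, 1315 and 1074 FPKM in adults and 703, 647 and 584 FPKM at E16.5. The ages did not overlap, but the change of 0.75 (SE 0.23, adjusted p = 0.0800) was not called, and it turned to -0.08 when libraries were rescaled to the same sum of FPKM.

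The 4 protein disulfide isomerases split, with 1 that rose and 1 that fell, where 2.12% of all genes tested rose and 8.83% fell. Pdia3 (chr2:121413775-121438687, plus strand), also called ERp57, is the isomerase that works with both lectin chaperones. It read 249, 209 and 313 FPKM in adults and 134, 119 and 107 FPKM at E16.5, with means 2.14 times apart and a change of 1.08 (SE 0.26, adjusted p = 0.0414). Pdia4 (chr6:47796141-47813430, minus strand), also called ERp72, went the other way, at 79.1, 153 and 97.0 FPKM in adults and 302, 306 and 274 FPKM at E16.5. Its highest adult sample lay far below its lowest E16.5 sample, the E16.5 mean was 2.68 times the adult mean and the change was -1.47 (SE 0.30, adjusted p = 0.0279), or -0.61 relative to the median of all genes. P4hb, the classical isomerase and a subunit of prolyl 4-hydroxylase, read 121, 134 and 116 FPKM in adults and 211, 188 and 158 FPKM at E16.5. The ages did not overlap, but its change of -0.58 was not called (adjusted p = 0.158). Pdia6 overlapped between the ages, with a change of -0.25 that turned to 0.094 with median-ratio scaling.

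The calls depended on the settings. All of the 6 genes that rose were lost without any 1 of the E16.5 replicates, in a fit with no intensity trend and when libraries were rescaled to the same sum of FPKM, and leaving out adult replicate 1 kept 2 of them (Hsp90b1 and Canx). With median-ratio scaling 11 ER genes rose, with Sec63, Rpn1, Dad1, Dnajb9 and Calr beside the 6. The call of Pdia4 was likewise lost without any 1 of the E16.5 replicates, without adult replicate 1, without the trend and after quantile normalization, and its change ran from -2.29 to -1.02 over the 19 alternatives.

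Promoter sequences were examined since several chaperone genes are known to carry the ER stress response element (ERSE), the letters CCAAT, 9 bases of any kind and CCACG, which is bound by NF-Y together with ATF6 or XBP1. RefSeq windows of the GRCm38.p6 build, from 250 bases before to 50 after the start site, were at hand for 37 of the 45 genes, and both strands were searched. There was no window for Srp19, Srp68, Sec61a1, Ssr2, Spcs3, Hyou1, Manf and Atf6. ERSE was found in 6 of the 37 windows (16.2%) and in 37 of 27025 genes of all windows (0.137%). The related ERSE-II, ATTGG and CCACG with 1 base between them, was found in Dnajb11 alone (2.70%), and in 12 of all genes (0.044%). The core of the unfolded protein response element, TGACGTGG, was in none of the 37 and in 0.714% of all genes, and the composite core of CHOP and ATF4, TGATGNAAN, was in none and in 4.496% of all. The stretches around the matches are shown because the genes that hold them include 4 of the 6 that rose. Each reads 5′ to 3′ on the strand of its gene, with the matched element in capitals.
Hspa5, chr2:34772020-34772048, plus strand: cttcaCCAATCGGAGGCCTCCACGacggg
Hsp90b1, chr10:86705513-86705676, minus strand: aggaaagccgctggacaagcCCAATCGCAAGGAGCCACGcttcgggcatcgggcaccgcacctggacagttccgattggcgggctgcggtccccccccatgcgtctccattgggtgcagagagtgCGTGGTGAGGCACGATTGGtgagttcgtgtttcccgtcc
Dnajc3, chr14:118937807-118937865, plus strand: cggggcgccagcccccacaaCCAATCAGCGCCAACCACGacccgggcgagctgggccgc
Calr, chr8:84847055-84847113, minus strand: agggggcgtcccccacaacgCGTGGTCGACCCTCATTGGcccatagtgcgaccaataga
Canx, chr11:50325780-50325838, minus strand: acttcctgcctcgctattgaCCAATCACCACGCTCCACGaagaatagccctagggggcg
Pdia6, chr12:17266471-17266529, plus strand: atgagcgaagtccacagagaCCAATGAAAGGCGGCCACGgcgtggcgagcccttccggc
Dnajb11, chr16:22857843-22857871, plus strand: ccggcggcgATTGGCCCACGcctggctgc

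The second element of Hsp90b1 and that of Calr run on the opposite strand, so that CGTGG comes first and ATTGG last. The ERSE matches began between 65 bases (Hspa5) and 212 bases (Hsp90b1) before the start site, and the match of Dnajb11 began 7 bases after it. The stretches of Hspa5 and Dnajb11 overlap an exon that GENCODE M21 annotates for the same gene, and the other stretches overlap none. Of the 6 genes with ERSE, 4 rose (Hspa5, Hsp90b1, Dnajc3 and Canx) and none fell, and their changes ran from -0.25 (Pdia6) to 1.79 (Dnajc3) with a median of 1.04. Of the 29 genes tested whose window held neither ERSE nor ERSE-II, 1 rose (Pdia3) and 4 fell, with a median of -0.20. Among all genes tested, 2.12% rose and 8.83% fell, with a median of -0.86. The highest change among these 29, 2.05 (Dnajb9), exceeded all those of the genes with ERSE. The genes with ERSE are all chaperones, cofactors or isomerases, and the part of role in this difference was not tested. A match describes the letters of these windows and was not tested as a site.

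Of 6 tested genes of the signal recognition particle and its receptor, none rose, 1 fell and 5 had negative changes (4 after quantile normalization, where that of Srp9 turned), with a median of -1.14 beside -0.86 for all genes, of which 72.8% had negative changes. Without adjustment limma gave 3 of the 6 as lower and none as higher at p below 0.05, beside 25.9% and 5.34% of all genes. Relative to the median of all genes, Srp9 and Srpr stood at 0.34 and 1.35. Srp14 (chr2:118475850-118479711, minus strand), which with Srp9 slows the ribosome until it docks, read 198, 118 and 130.2 FPKM in adults and 343, 403 and 293 FPKM at E16.5. The ages did not overlap, the E16.5 mean was 2.33 times the adult mean and the change was -1.24 (SE 0.29, adjusted p = 0.0370). Relative to all genes it was -0.38, and the call was lost under median-ratio scaling, without any 1 of the E16.5 replicates and without adult replicate 2. The partner Srp9 overlapped between the ages, at 2.15, 3.996 and 20.1 FPKM in adults and 12.8, 9.65 and 5.61 FPKM at E16.5, and 21.3% of its transcript can be confused with other genes at a length of 50 bases. Srp68 and Srp72, which bind each other on the particle's RNA, were below every E16.5 sample in every adult sample, with changes of -1.11 and -1.16, but were not called (adjusted p = 0.120 and 0.133). Srp19, which helps to assemble the particle, was listed at 0 in adult replicate 3 and had a change of -2.57 (adjusted p = 0.180). Srpr, the receptor subunit, was the exception with a change of 0.50 and overlapping ages.

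Within the Sec61 channel the subunits differed. Sec61a1, the pore, read 20.6, 27.6 and 16 FPKM in adults and 21.7, 17.2 and 17.4 FPKM at E16.5, with a change of 0.15 (95% interval -0.79 to 1.10, adjusted p = 0.816). The small subunits that sit beside the pore were near 0 in adults. Sec61b (chr4:47474658-47483242, plus strand) read 109, 112 and 117 FPKM at E16.5 and 0, 1.94 and 0 FPKM in adults, where 3 reads would be worth 1.48, 0.652 and 1.86 FPKM in replicates 1, 2 and 3. Sec61g (chr11:16500530-16508484, minus strand) read 79.7, 72.8 and 28.8 FPKM at E16.5 and was listed at 0 in every adult sample, where 3 reads would be worth 0.464, 0.205 and 0.586 FPKM. The values of 3 reads assume the longest annotated transcript of each gene and would be higher for a shorter one. A listed 0 may also come from a failed estimate. Sec61b and Sec61g both fell, with fitted changes of -6.31 (SE 0.58, adjusted p = 0.00256) and -5.81 (SE 0.63, adjusted p = 0.00424). The size of these fitted changes is set by the pseudocount and ran to -10.92 and -12.43 under smaller ones, so no fold is given. The call of Sec61b was lost in 1 of 17 alternatives, without E16.5 replicate 2 (adjusted p = 0.0556), and that of Sec61g in 2 of 17, without E16.5 replicate 1 or 2. Of their 50-base stretches, 15.3% and 20.5% are shared with other genes, so part of their reads could be placed elsewhere. The share for Sec61a1 is 14.6%, so the same holds for the pore.

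Sec61a2, the second pore gene, varied more within an age than between ages, at 0.118, 6.14 and 39.9 FPKM in adults and 4.05, 4.69 and 0.407 FPKM at E16.5, and shares 35.8% of its 50-base stretches with Nudt5. Sec62 and Sec63 join the channel for chains that enter after their synthesis, and Sec63 brings BiP to the pore by its J domain. Sec63 read 28.3, 30 and 27.8 FPKM in adults and 11.9, 10.03 and 7.94 FPKM at E16.5 without overlap, yet its change of 1.45 missed the threshold (adjusted p = 0.0588). Sec62 overlapped between the ages, with a change of 0.17.

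The 4 subunits of the translocon-associated protein complex, which assists the channel with some signal sequences, also split. Ssr2 (chr3:88575876-88588419, plus strand), the beta subunit, read 9.38, 11.5 and 0.333 FPKM in adults and 172, 132 and 87.6 FPKM at E16.5. Its E16.5 mean was 18.5 times its adult mean and the change was -4.51 (SE 0.85, adjusted p = 0.0222), a call that was lost without any 1 of the E16.5 replicates and with pseudocounts of 0.1 and 0.01. Ssr4, the delta subunit, read 2.12, 47.0 and 0 FPKM in adults and 175, 75.2 and 109 FPKM at E16.5, and its change of -4.42 had a standard error of 1.28 and was not called (adjusted p = 0.0651). Ssr1, the alpha subunit, was above every E16.5 sample in every adult sample, at 23.1, 26.5 and 15.2 FPKM against 12.3, 10.5 and 14.4 FPKM, with a change of 0.73 that was not called (adjusted p = 0.285) and was -0.050 at the same sum of FPKM. Ssr3, the gamma subunit, had a change of -0.78 with overlapping ages.

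No gene of signal peptidase or of the oligosaccharyltransferase was called by limma, where 2.12% of all genes tested rose and 8.83% fell. Of the 3 peptidase subunits, all had negative changes, except that those of Spcs2 and Spcs3 turned after quantile normalization. Of these, 1, Spcs1, was lower at an unadjusted p below 0.05. Among all genes tested, 72.8% had negative changes and 25.9% were lower at that p. Spcs1 was uneven among adults, at 52.1, 19.8 and 0.407 FPKM, all below the 106, 75.7 and 99.5 FPKM at E16.5, and its change was -3.02 (SE 1.19, adjusted p = 0.134). Spcs2 and Spcs3 had changes of -0.45 and -0.31. Of the 6 subunits of the oligosaccharyltransferase, 4 had positive changes, though rescaling to the same sum of FPKM turned those of Dad1, Stt3b and Rpn2. At an unadjusted p below 0.05, 2 of the 6 were higher, beside 5.34% of all genes. In 3 the adult samples lay above all E16.5 samples, which held for 7.39% of all genes. These 3 were Rpn1, a docking subunit, at 75.5, 80.3 and 96.2 FPKM in adults and 53.7, 36.5 and 46.2 FPKM at E16.5 (change 0.88, adjusted p = 0.0972), Dad1 (0.62, adjusted p = 0.127) and Stt3b (0.58, adjusted p = 0.291). Rpn2 had a change of 0.14, Stt3a had one of -0.20, and Ddost, at 8.09, 44.0 and 54.9 FPKM in adults and 59.4, 57.0 and 46.1 FPKM at E16.5, was low in adult replicate 1 alone, with a change of -0.95.

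None of the 5 regulators of the unfolded protein response was called by limma, where 2.12% of all genes tested rose and 8.83% fell. At an unadjusted p below 0.05, 1 was higher and none lower, beside 5.34% and 25.9% of all genes. The gene that was higher was Xbp1, the transcription factor whose messenger RNA is spliced by the sensor Ern1. It read 60.3, 19.9 and 28.5 FPKM in adults and 5.13, 15.2 and 5.74 FPKM at E16.5, all adult samples above all E16.5 samples, with means 4.18 times apart and a change of 1.94 (SE 0.61, adjusted p = 0.0790). A gene level does not tell its spliced from its unspliced form. Ern1 itself had a change of 1.28 (SE 0.78, adjusted p = 0.293) and Atf6, the other membrane sensor of the list, one of 0.33, both with overlapping ages. Atf4, the factor translated when the kinase PERK is active, ranged from 0 to 89.3 FPKM among adults and from 43.1 to 67.2 FPKM at E16.5. Ddit3, its target CHOP, read 57.3, 17.5 and 0 FPKM in adults and 11.8, 17.9 and 8.97 FPKM at E16.5. In both genes the spread between adult samples exceeded the difference between the ages, and the intervals of the change, -5.79 to 0.79 for Atf4 and -3.55 to 2.78 for Ddit3, spanned 0.

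A ratio of 2 genes within a library cancels the scaling between libraries, except where a gene is so low that the pseudocount weighs in. It does not cancel a shift that varies with transcript length, such as the one described below. The longest annotated transcripts have 3967 and 6032 bases for Sec62 and Sec63, and 2184 and 4281 for Calr and Canx. The part of length in the ratios was not tested. The log2 ratio of FPKM + 1 was compared for 7 pairs of genes, which act in the same step except for Xbp1 and Atf4. A two-sided exact permutation test was used, whose smallest p with 3 samples against 3 is 0.1, so that none could pass the threshold.

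**Figure D3:**
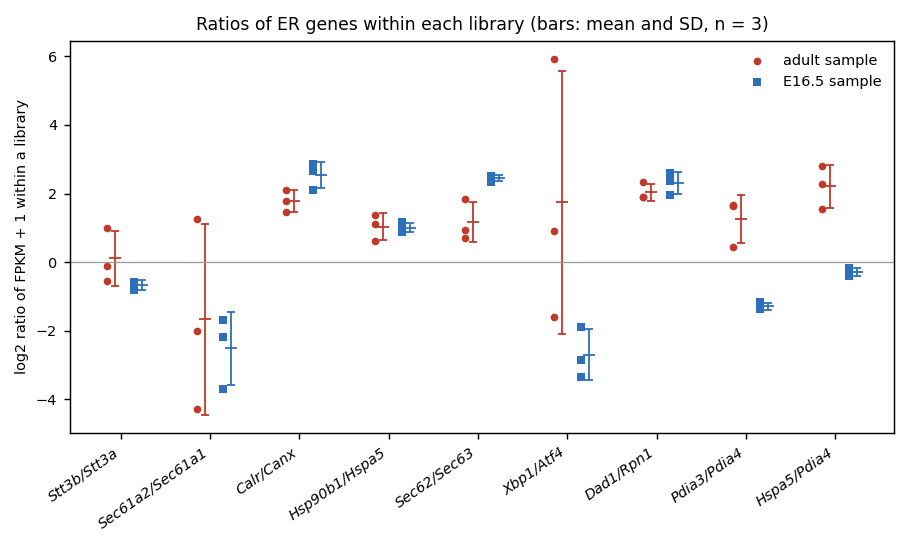
Log2 ratio of FPKM + 1 of 9 gene pairs within each library. Circles are adult and squares E16.5 samples, and bars give the mean and SD of 3 samples. The pairs Pdia3/Pdia4 and Hspa5/Pdia4 lie above 0 in every adult sample and below 0 in every E16.5 sample.

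In 4 of the 7 pairs the ages did not overlap, each with p = 0.1 by the exact permutation test, or 0.175 after Benjamini-Hochberg adjustment over the 7. Sec62 was 1.96, 3.66 and 1.66 times the level of Sec63 in adults and 6.03, 5.49 and 6.35 times at E16.5, so that the balance of the partners of the channel lay nearer to Sec63 in adults (difference of log2 ratios -1.29). Calr was 2.75, 3.47 and 4.29 times the level of Canx in adults and 7.30, 6.41 and 4.36 times at E16.5, the closest pair of samples being adult replicate 3 and E16.5 replicate 3. Stt3b, the catalytic subunit for sites missed during synthesis, was 0.684, 2.04 and 0.917 times the level of Stt3a, the subunit that works during synthesis, in adults and 0.660, 0.656 and 0.557 times at E16.5. The ratio of Xbp1 to Atf4 also did not overlap, but adult replicate 1 lists Atf4 at 0, so that its ratio there rests on the pseudocount. The difference of 4.44 became 5.70 and 6.82 with pseudocounts of 0.1 and 0.01. The ratio of Hsp90b1 to Hspa5 was nearly level, with log2 means of 1.04 ± 0.39 in adults and 1.01 ± 0.14 at E16.5 (SD, n = 3), an exact permutation p of 1.0 and a difference of 0.03. The ratios of Sec61a2 to Sec61a1 and of Dad1 to Rpn1 overlapped, with exact permutation p of 0.8 and 0.2, and the difference of the former moved from 0.85 to 0.50 with a pseudocount of 0.01.

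Other pairs were chosen after their values were seen and carry no test. Pdia3 stood at 3.15, 1.36 and 3.23 times the level of Pdia4 in adults and at 0.444, 0.389 and 0.390 times at E16.5, so that their order turned over between the ages in every sample. Hspa5 was 4.58, 3.36 and 4.11 times the level of P4hb in adults and 1.18, 1.23 and 1.54 times at E16.5. Ssr1 was 2.46, 2.30 and 45.7 times the level of Ssr2 in adults and 0.0713, 0.0796 and 0.164 times at E16.5, although both belong to 1 complex. Their longest annotated transcripts have 9333 and 1189 bases, and the part of length in this ratio was not tested.

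The changes varied with transcript length, over all genes and over the ER genes. Among all genes tested, the median change was -2.01 where the longest annotated transcript had at most 1000 bases, -1.41 from 1001 to 2000, -1.08 from 2001 to 3000, -0.69 from 3001 to 5000 and -0.40 above 5000 bases. In the shortest class 34.1% to 65.8% of genes were listed at 0 in an adult library, against 12.5% to 17.2% in an E16.5 library. Over the 44 ER genes Spearman's rho of change and length was 0.50 (Pearson's r with log2 length 0.54), and over 11525 genes tested with a known length it was 0.28. These correlations are across genes, which share libraries and are not independent.

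**Figure D4:**
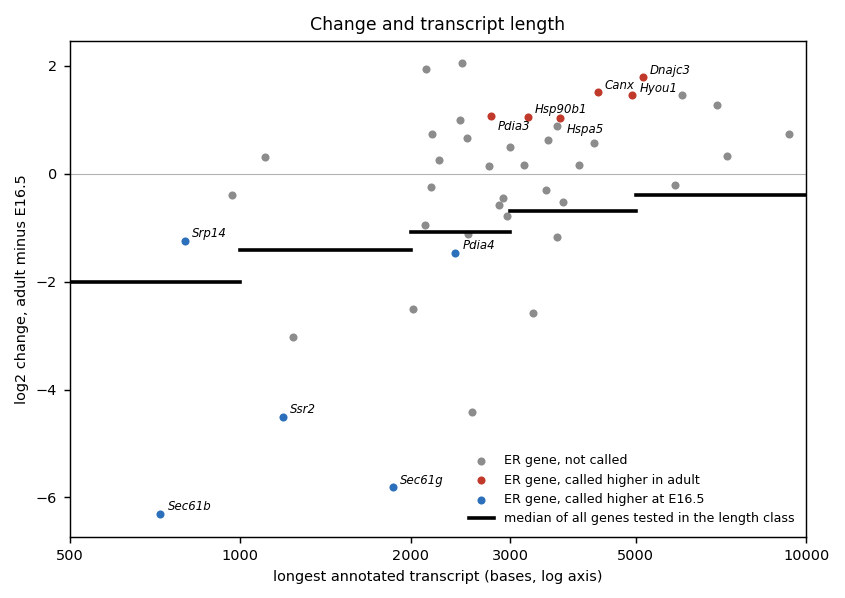
Change of each of the 44 ER genes tested (log2, adult minus E16.5) against the length of its longest annotated transcript in bases (log axis). Black bars give the median of all genes tested in each length class. The genes that rose have transcripts of 2770 to 5141 bases, and Sec61b, Sec61g and Ssr2 lie more than 3 log2 units below the bar of their class.

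Of the 5 genes that fell, Srp14, Sec61b, Ssr2 and Sec61g have longest transcripts of 798, 723, 1189 and 1862 bases, and Pdia4 one of 2399. Set against the median of their length class, Sec61b, Sec61g and Ssr2 stood at -4.29, -4.41 and -3.10, Pdia4 at -0.39 and Srp14 at 0.78, so Srp14 fell by less than the typical transcript of its length. The 6 genes that rose stood 1.72 (Hspa5) to 2.201 (Canx) above the median of their class. The part of length in these results was not tested.

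A wider list of 119 other ER genes gave fewer calls. Of 108 tested, 1 rose (0.926%) and 6 fell (5.56%), beside 2.12% and 8.83% of all genes tested. The median change of the 108 was -0.30, beside -0.86 for all genes. At an unadjusted p below 0.05, 11 (10.2%) were higher and 15 (13.9%) lower, beside 5.34% and 25.9% of all genes. The gene that rose was Tmx4, a membrane-bound thioredoxin, at 41.8, 37.1 and 94.4 FPKM in adults and 13.0, 13.9 and 9.10 FPKM at E16.5 (change 2.07, adjusted p = 0.0360). Its relative Tmx1 fell, from 78.8, 88.2 and 56.0 FPKM at E16.5 to 13.4, 25.7 and 14.03 FPKM in adults (change -2.05, adjusted p = 0.0240). Of folding and redox genes Erp29 and the cyclophilin Ppib also fell, with changes of -1.33 and -1.34 (adjusted p = 0.0318 and 0.0369), and 36.6% and 31.2% of their 50-base stretches are shared with other genes. Sec13 and Sec23a, coat proteins of the vesicles that leave the ER, fell among 18 genes of ER exit and retrieval, Sec13 from 151, 155 and 161 FPKM at E16.5 to 42.5, 28.6 and 7.73 FPKM in adults (change -2.81, adjusted p = 0.0274) and Sec23a with a change of -1.40 (adjusted p = 0.0270). Emc4, of the complex that inserts membrane proteins, fell with a change of -3.60 (adjusted p = 0.0325). Of 20 genes of ER-associated degradation, 11 of N-glycosylation and glycan trimming and 15 other stress sensors and targets none was called by limma. At an unadjusted p below 0.05, 4, 3 and 0 of them were higher and 1, 1 and 3 lower, beside 5.34% and 25.9% of all genes.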

How the data were processed

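The 6 samples were grouped by the age in their labels. The authors sequenced single-end reads of 50 bases from SMARTer Pico libraries, aligned them to mm10 with STAR (2.4.0 per the labels) and calculated FPKM per gene with Cuffquant, and the deposited FPKM were used unchanged. The annotation behind them is not given in the sources used here, the number of mapped reads is unknown, and the authors' read counts were not used here.

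Log2(FPKM + 1) was fitted with limma 3.58.1 (R 4.3.3) with a trend on intensity and age as the only term, after a filter on the mean over the 6 samples (above 1 FPKM). Adjustment was by Benjamini-Hochberg over all 11601 genes tested. The fit was also run on simulated normal values, in which only a set of chosen genes differed between the ages. Those values held no shift with depth or transcript length, so the fit was not tested under such shifts. Ratios were compared by exact permutation tests (scipy 1.17.1). The value of 1 read came from the steps of low FPKM among 2615 genes with 1 transcript, which gave 36 to 64 low values per library. The best-scoring of many trial steps was kept, and 63.9% to 82.5% of low values then lay within 0.1 of a whole read. Choosing the step in this way can raise that share. Coordinates, lengths and 50-base stretches shared between genes are from GENCODE M21, which matched 23954 of 24354 genes, and promoters from RefSeq.

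Members, lists and tests were chosen with earlier results of these data known. All 45 members are named, and of the wider list at most 3 called genes per sublist and direction. The filter on genes above 0 in every sample and the limit of 10% shared stretches were alternatives chosen after seeing the data. The closing section gives the effect of these and of 2 pseudocounts, 2 other filters, 4 scalings, other limma fits, a threshold of 0.01 and each sample left out.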

Additional observations from a re-analysis of the deposited data

How the results depend on the processing

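Counts of genes that rose and fell moved with nearly every choice, and none of the 11 called ER genes changed direction. In the order all genes that rose (246), all that fell (1024), ER genes that rose (6) and fell (5), other ER genes that rose (1) and fell (6), leaving out 1 sample at a time gave 27 to 357, 16 to 1704, 0 to 6, 0 to 6, 0 to 5 and 0 to 13. Rescaling to the same sum of FPKM gave 119, 3200, 0, 11, 0 and 18, and quantile normalization gave 569, 504, 12 and 3 for the first 4 and 14 other ER genes that rose. Median-ratio scaling gave 658 genes that fell, 11 ER genes that rose, and 9 and 3 other ER genes. Without a trend 158 genes and 0 ER genes rose, 3 ER genes fell, and 0 and 3 other ER genes were called. An adjusted p of 0.01 left 56, 132, 0, 2, 0 and 0. A mean above 1 FPKM in both ages gave 163, 308, 3 and 2, and genes above 0 in every sample gave 451 that fell, 3 ER genes that fell and 5 other ER genes that rose. With no filter 2 other ER genes rose and 3 fell, with a pseudocount of 0.01 2 rose and with array weights 3 rose. Without Mir6236 in the sum 2 ER genes rose, and with at most 10% of stretches shared 3 ER genes fell. The median change of the ER genes was 0.49 with median-ratio scaling, -0.64 at the same sum and 0.67 with quantile normalization, where that of all genes was -0.56, -1.46 and 0.01.

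The labels do not say that the replicate numbers pair the samples. Correlations across genes of the deviations from the mean of each age were 0.0009, 0.044 and 0.015 for same-numbered samples. For samples with different numbers they ran from -0.029 to 0.013. Whether same-numbered samples shared a batch cannot be read from these values. With the replicate block 112 genes rose and 452 fell, 0 ER genes rose and 3 fell, and 0 other ER genes rose and 2 fell.

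Changes of ER genes that were not called turned in sign. At the same sum of FPKM they were -0.28 for Srpr, -0.63 for Sec61a1, -0.65 for Sec62, -0.050 for Ssr1, -0.67 for Rpn2, -0.23 for Stt3b, -0.21 for Dad1, -0.16 for Dnajb11, -0.45 for Sdf2l1, -0.55 for Manf, -0.084 for Calr and -0.38 for Atf6, and without Mir6236 in the sum -0.0017 for Sec61a1 and -0.016 for Rpn2. With quantile normalization they were 0.21 for Srp9, 0.21 for Spcs2, 0.94 for Spcs3, 0.19 for Stt3a, 0.26 for Pdia6 and 0.61 for Ddit3, with median-ratio scaling 0.13 for Stt3a and 0.094 for Pdia6, and with array weights 0.018 for Spcs3 and 0.49 for Ddit3. With 1 sample left out, the changes ran from -1.32 to 0.053 for Srp9, -0.038 to 0.34 for Sec61a1, -0.28 to 2.32 for Sec61a2, -0.20 to 0.41 for Sec62, -0.76 to 0.25 for Spcs3, -0.072 to 0.51 for Rpn2, -0.39 to 0.043 for Stt3a, -0.38 to 1.54 for Sdf2l1, -0.30 to 0.77 for Manf, -0.12 to 1.13 for Atf6 and -1.64 to 1.29 for Ddit3. The difference of log2 ratios then ran from -0.62 to 2.15 for Sec61a2 to Sec61a1 and from -0.14 to 0.24 for Hsp90b1 to Hspa5. The cause of these changes was not tested. The lower depth of the adult libraries limits what can be read from genes near 0 there.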
